A study of Mus musculus with 15 samples.

Results

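The Obox genes encode homeodomain transcription factors of the mouse germ line and early embryo, and this account covers Obox1, Obox2, Obox5, Obox3 and Obox6. The 5 members were taken by gene symbol from a table of 53023 genes, and all 5 were found, 1 row each. They were read as maternal members (Obox1, Obox2 and Obox5), whose mRNA is stored in the oocyte, and zygotic members (Obox3 and Obox6), which are transcribed by the embryo. Another 50 rows carry an Obox name, among them Obox7, Obox8 and many pseudogenes, and these were used for context.

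The transcriptomes came from pools of 5 ICR mouse embryos at the 2-cell stage, collected 32 hours after insemination, in a study of filamentous actin in the nucleus. mRNA for a nuclear actin, tagged with HA and a nuclear localisation signal, was injected 2 hours after insemination. Actin R62D is a mutant that does not polymerise. There are 6 libraries in 3 pairs, and the 2 kinds of label contradict each other on what each pair received. Pair C (libraries C1 and C2) is annotated as injected with actinR62D-HA-NLS and titled as the non-injected control. Pair B (B1 and B2) is annotated as injected with actinWT-HA-NLS and titled R62D. Pair A (A1 and A2) is annotated as non-injected and titled Wt. Read by annotation, C against B therefore sets R62D against wild-type actin; read by title, it sets non-injected embryos against R62D. In the same way C against A is R62D against non-injected by annotation, or non-injected against wild-type actin by title. B against A is wild-type actin against non-injected by annotation, or R62D against wild-type actin by title. The number in a library's name is the replicate number of its title. The labels do not say that equal numbers share a day or a mating, nor that the pools of a pair are separate matings, so any p-value reflects how much these particular pools vary, which may be technical.

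As background, Obox genes lie in a rodent cluster of tandem copies on chromosome 7, and their homeodomains resemble those of the CRX and OTX factors. Oocytes load maternal Obox mRNA into the egg, and this RNA is degraded along with most other maternal mRNA around the 2-cell stage, when the embryo's own genome is activated. Loss of several Obox genes together is known to impair this activation in mouse embryos, with maternal and zygotic copies standing in for each other. Obox6 can also promote the reprogramming of mouse fibroblasts to pluripotency, and its loss alone is tolerated by the mouse.

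The members sit close together, and the starts of the maternal members resemble that of the zygotic Obox3. In mm10 coordinates of the table, Obox2 spans chr7:15388721-15398545 (plus strand), Obox1 chr7:15388948-15556866 (plus), Obox3 chr7:15479825-15639902 (minus), Obox5 chr7:15750131-15759800 (plus) and Obox6 chr7:15833241-15839678 (minus). RefSeq promoter windows (GRCm38, 250 bases before to 50 after the RefSeq start) were found for 4 of the 5 members. None was found for Obox6, so its start was not compared. The windows of Obox1 and Obox2 were identical over 203 aligned bases. Obox1 and Obox5 shared 96.5% of 283 aligned bases, while Obox1 and the zygotic Obox3 aligned over 164 bases only, at 93.3% identity. A 95-base part of the stretch that aligned between Obox3 and both Obox1 and Obox5 is shown, and the alignments run on past both of its ends. It is given 5′ to 3′ on the gene's strand, with the TATA-box letters TATATAA in capitals.
Obox1, chr7:15547159-15547253, plus strand: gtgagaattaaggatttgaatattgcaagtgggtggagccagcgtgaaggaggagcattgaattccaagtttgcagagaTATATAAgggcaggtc
Obox5, chr7:15750260-15750354, plus strand: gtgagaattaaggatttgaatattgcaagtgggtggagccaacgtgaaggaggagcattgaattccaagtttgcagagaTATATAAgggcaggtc
Obox3, chr7:15639792-15639886, minus strand: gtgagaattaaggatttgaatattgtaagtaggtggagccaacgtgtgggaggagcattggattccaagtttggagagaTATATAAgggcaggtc
Over these 95 bases Obox1 and Obox5 differed at 1 position, Obox3 and Obox5 at 6, and Obox3 and Obox1 at 7. Obox7 had 0 differences from Obox5, and the Obox2 window ends after the first 51 bases, with 0 differences from Obox1. GENCODE M21 also holds longer models that start further upstream.

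The alignments of Obox3 with Obox1 and with Obox5 ended 16 bases upstream of this stretch, while that of Obox1 with Obox5 ran on. The 86 bases before the stretch are given for Obox1 and Obox5. For Obox3 an 86-base piece that starts further upstream and stops 13 bases short of the stretch is given to show its OTX-type site (GGATTA) in capitals, so the 3 pieces do not match position for position.
Obox1, chr7:15547073-15547158, plus strand: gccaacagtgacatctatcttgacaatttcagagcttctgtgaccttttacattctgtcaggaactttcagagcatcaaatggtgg
Obox5, chr7:15750174-15750259, plus strand: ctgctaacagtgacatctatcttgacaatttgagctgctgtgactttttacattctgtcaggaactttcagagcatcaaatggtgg
Obox3, chr7:15639900-15639985, minus strand: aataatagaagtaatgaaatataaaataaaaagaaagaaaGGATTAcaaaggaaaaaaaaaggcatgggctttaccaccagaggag
The motif TATATAA stood at -31 in Obox5, -30 in Obox3 and -19 in Obox1 relative to the RefSeq start. The Obox2 window had 0 matches, but it ends before this part of the stretch, so its letters there were not read. Of 32851 promoter windows, 3.2% hold the motif on either strand. GGATTA was found in the window of Obox3 and not in those of Obox1, Obox2 and Obox5, and 7.1% of all windows hold it on either strand. CANNTG, the letters of an E-box, which read the same on both strands, occurred at 2 sites in Obox1 and Obox5, 4 in Obox2 and 0 in Obox3, and in 72.3% of all windows. A match describes these letters and is not evidence of binding.

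The libraries held 907210 (C2) to 1555431 (C1) assigned reads, and every member rested on at least 85.26 reads, the value of Obox2 in C2. Depth was lower in the library numbered 2 of C and B and higher in that of A. All 22 markers of the 2-cell stage, such as Zscan4d and Zfp352, were above 0 in every library. They summed to 2804 and 2102 FPKM in pools C1 and C2, 3316 and 4519 FPKM in pools B1 and B2, and 2532 and 1771 FPKM in pools A1 and A2, so B2 stood apart as the highest. The 22 cumulus and granulosa cell markers, of cells that surround the oocyte, summed to 11.48 and 6.46 FPKM in pools C1 and C2, 9.57 and 12.93 FPKM in pools B1 and B2, and 5.77 and 6.41 FPKM in pools A1 and A2. Between 15 and 18 of them were at 0 in a library, the defining genes Foxl2, Fshr and Lhcgr in all 6, and 3 (Amhr2, Kitl and Tnfaip6) were high enough to be tested.

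The zygotic member Obox6 had the highest level of the family. It measured 1134 and 1344 FPKM (fragments per kilobase of gene length, scaled to the assigned reads of the library) in pools C1 and C2, 1072 and 1345 FPKM in pools B1 and B2, and 1006 and 1377 FPKM in pools A1 and A2. The library numbered 2 was the higher one in each pair, as for 11.1% of the genes tested. All libraries numbered 2 lay above all those numbered 1, as for 4.78%. By its mean of 1213 FPKM Obox6 ranked 59 of the 13443 genes averaging 1 FPKM or more, which were the genes tested.

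Obox3, the other zygotic member, measured 223 and 205.7 FPKM in pools C1 and C2, 303 and 273 FPKM in pools B1 and B2, and 198 and 229.4 FPKM in pools A1 and A2. Both B libraries lay above the other 4, and the libraries of C and A overlapped. Of all genes tested, 14.8% lay wholly lower in C than in B, and 18.8% wholly higher in B than in A. Its mean of 238.7 FPKM ranked 332.

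Obox5 was the most abundant maternal member. It measured 722.2 and 522.7 FPKM in pools C1 and C2, 409.2 and 233.6 FPKM in pools B1 and B2, and 483.7 and 310.2 FPKM in pools A1 and A2. Both C libraries lay above all of B and A, B and A overlapped, and in each pair the library numbered 2 was lower. Of all genes tested, 15.5% lay wholly higher in C than in B, and 16.5% in C than in A. The library numbered 2 was lower in every pair for 19.2%. Obox5 ranked 171 with a mean of 446.9 FPKM.

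Obox1 measured 172.9 and 82.2 FPKM in pools C1 and C2, 132.1 and 82.43 FPKM in pools B1 and B2, and 124.4 and 66.36 FPKM in pools A1 and A2. Its 3 pairs overlapped with each other. The 3 libraries numbered 2, at 66.4 to 82.4 FPKM, all lay below the 3 numbered 1, at 124.4 to 172.9 FPKM. This held for 10.1% of the genes tested.

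Obox2 followed Obox1 closely, with 143.8 and 57.1 FPKM in pools C1 and C2, 115 and 64.32 FPKM in pools B1 and B2, and 118.3 and 53.11 FPKM in pools A1 and A2. Again the pairs overlapped, and the libraries numbered 2 (53.1 to 64.3 FPKM) lay below those numbered 1 (115 to 143.8 FPKM). Libraries numbered 2 lay wholly below those numbered 1 for 10.1% of the genes tested. By mean level Obox1 ranked 761 and Obox2 931.

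The order of levels was Obox6, Obox5, Obox3, Obox1 and Obox2 in C1, C2, B1, A1 and A2, while in B2 Obox3 stood above Obox5. Obox6 exceeded Obox5 in 6 of 6 libraries by 1.57 to 5.76 times, with ranges that did not overlap, and Obox3 exceeded Obox1 in 6 of 6 by 1.29 to 3.46 times. Obox5 and Obox3 had overlapping ranges, as did Obox1 and Obox2, the second of these at 1.05 to 1.44 times in each library.

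**Figure D1:**
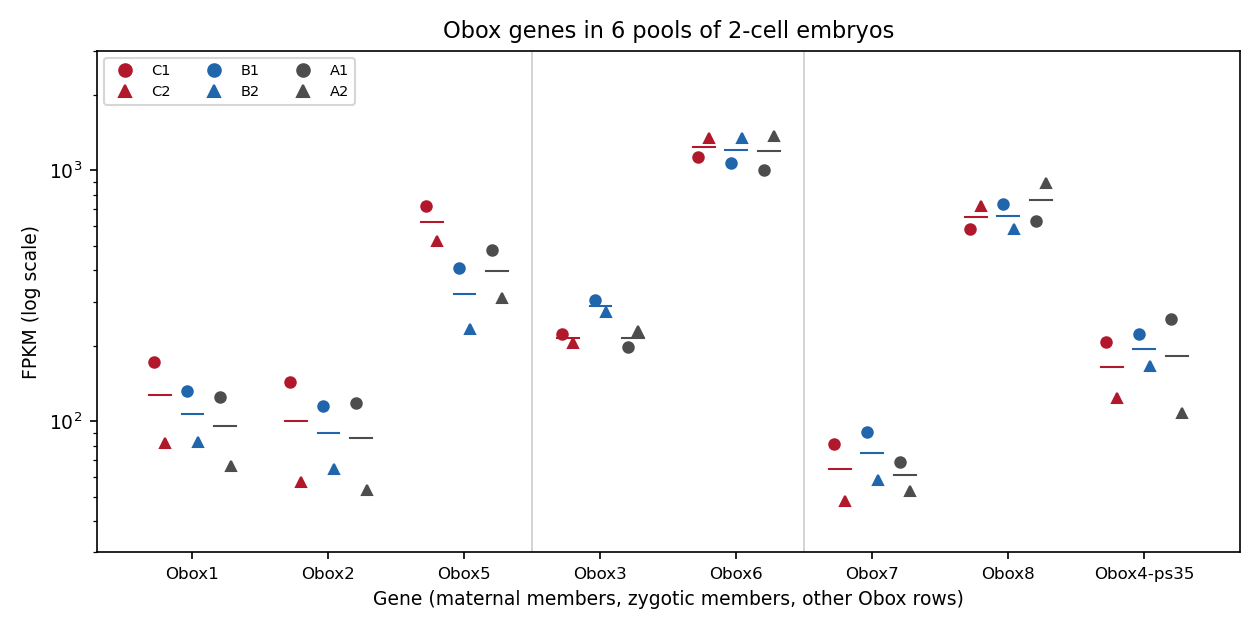
FPKM on a log axis of the maternal members, the zygotic members and 3 other Obox genes in 6 libraries; circles are libraries numbered 1, triangles those numbered 2, and short lines are pair means. Triangles lie below circles in every pair for Obox1, Obox2, Obox5, Obox7 and Obox4-ps35 and above them for Obox6.

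Reads shared between genes limit how far the single members can be told apart. The annotated span of Obox1 overlaps that of Obox2 on the plus strand, and Obox3-ps6 lies within the span of Obox3 on the minus strand. Whether the sharing comes from these overlaps or from separate similar copies was not tested. Reads recovered from FPKM and length were not whole numbers in 6 of 6 libraries for Obox1, Obox2, Obox5 and Obox3, and in 4 libraries for Obox6, which is what a fractional count of reads shared by several genes gives. Of all 50-base windows in the GENCODE M21 transcripts of Obox1, 57.4% also occur in a transcript of another gene, and 56.4% occur in Obox2. For Obox2 the shared part was 65.1%, for Obox3 20.2%, for Obox5 18.1% and for Obox6 5%. Obox6 shared windows with the pseudogene Obox6-ps1 alone. These windows can miss part of the sharing: Obox3-ps7 shares 0 of them, yet its reads were not whole in 6 of 6 libraries. Values of Obox1 and Obox2 are therefore uncertain one by one and are also given together. Their summed level was 316.7 and 139.3 FPKM in pools C1 and C2, 247.1 and 146.8 FPKM in pools B1 and B2, and 242.7 and 119.5 FPKM in pools A1 and A2, lower in the library numbered 2 of each pair.

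**Figure D2:**
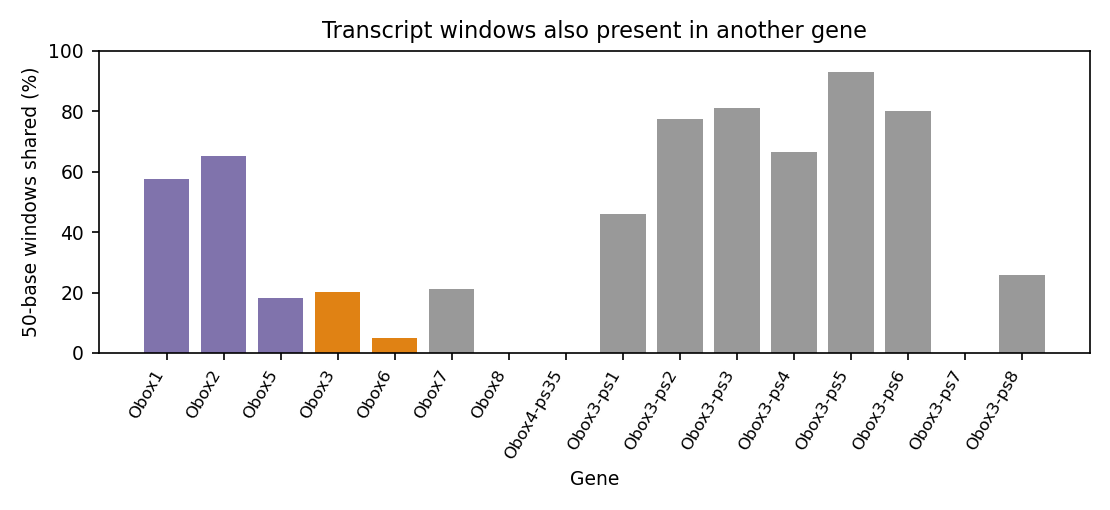
Share of 50-base transcript windows (percent) of each Obox gene that also occur in a transcript of another gene, with maternal members in purple, zygotic members in orange and other Obox rows in grey. Obox1 (57.4%) and Obox2 (65.1%) have the highest shares of the 5 members, Obox6 (5%) the lowest, and Obox8, Obox4-ps35 and Obox3-ps7 share 0.

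Summed over the members, the family measured 2396 and 2211.5 FPKM in pools C1 and C2, 2031.1 and 1998.3 FPKM in pools B1 and B2, and 1930.2 and 2035.8 FPKM in pools A1 and A2. It took 0.344% to 0.434% of the assigned reads of a library. By pair the family sum was 2304 ± 130 FPKM (pair C), 2015 ± 23.2 FPKM (pair B) and 1983 ± 74.6 FPKM (pair A; SD, n = 2 each), and both C libraries stood above B and A for these 5 members. This did not hold over all 55 Obox rows, which summed to 6720.9 and 6060.6 FPKM in pools C1 and C2, 6966.3 and 6940.4 FPKM in pools B1 and B2, and 5818.7 and 6428.7 FPKM in pools A1 and A2. There both C libraries lay below both B libraries and overlapped with A. On the log2(sum + 1) scale, C against B was 0.19 for the members and -0.12 for all rows.

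The maternal sum was 1039 and 662 FPKM in pools C1 and C2, 656.3 and 380.4 FPKM in pools B1 and B2, and 726.3 and 429.7 FPKM in pools A1 and A2. C1 was the highest library and B2 the lowest, and the library numbered 2 was lower in each pair. By pair it was 850.5 ± 267 FPKM (pair C), 518.4 ± 195 FPKM (pair B) and 578 ± 210 FPKM (pair A; SD, n = 2 each). On the scale of log2(sum + 1) the differences of the pair means were 0.73 for C against B, 0.57 for C against A and -0.16 for B against A. The spread within pairs on the same scale was 0.52 (SD pooled over pairs), so the first 2 differences exceeded this spread and the third did not. This rested on single libraries: the C against B difference was 0.41 without C1 and 0.34 without B2, and the C against A difference was 0.24 without C1 and 0.19 without A2, all below the spread.

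The zygotic sum was higher in the library numbered 2 of each pair. It was 1357 and 1549.5 FPKM in pools C1 and C2, 1374.8 and 1617.9 FPKM in pools B1 and B2, and 1203.9 and 1606.1 FPKM in pools A1 and A2. All 3 libraries numbered 2 lay above all 3 numbered 1, as for Obox6, the larger part of this sum, and for 4.78% of the genes tested. The differences of pair means were -0.04 (C against B), 0.06 (C against A) and 0.10 (B against A) on the log2(sum + 1) scale, all below the pooled within-pair SD of 0.21.

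The maternal sum relative to the zygotic sum combined both shifts. The ratio was 0.766 and 0.427 in pools C1 and C2, 0.477 and 0.235 in pools B1 and B2, and 0.603 and 0.268 in pools A1 and A2. The zygotic sum thus exceeded the maternal sum in all 6 libraries, though the maternal Obox5 stood above the zygotic Obox3 in 5 of 6. As a log2 difference of the sums, the values were -0.38 and -1.23 in pools C1 and C2, -1.07 and -2.09 in pools B1 and B2, and -0.73 and -1.90 in pools A1 and A2. The pair means differed by 0.77 (C against B), 0.51 (C against A) and -0.26 (B against A), against a pooled within-pair SD of 0.72. Only the first exceeded this SD, and without C1 it was 0.35 and without B2 0.26, while the C against A difference was -0.08 without A2. No p is given for these sums, and pairs of 2 pools cannot reach an exact two-sided p below 0.333 in any case.

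**Figure D3:**
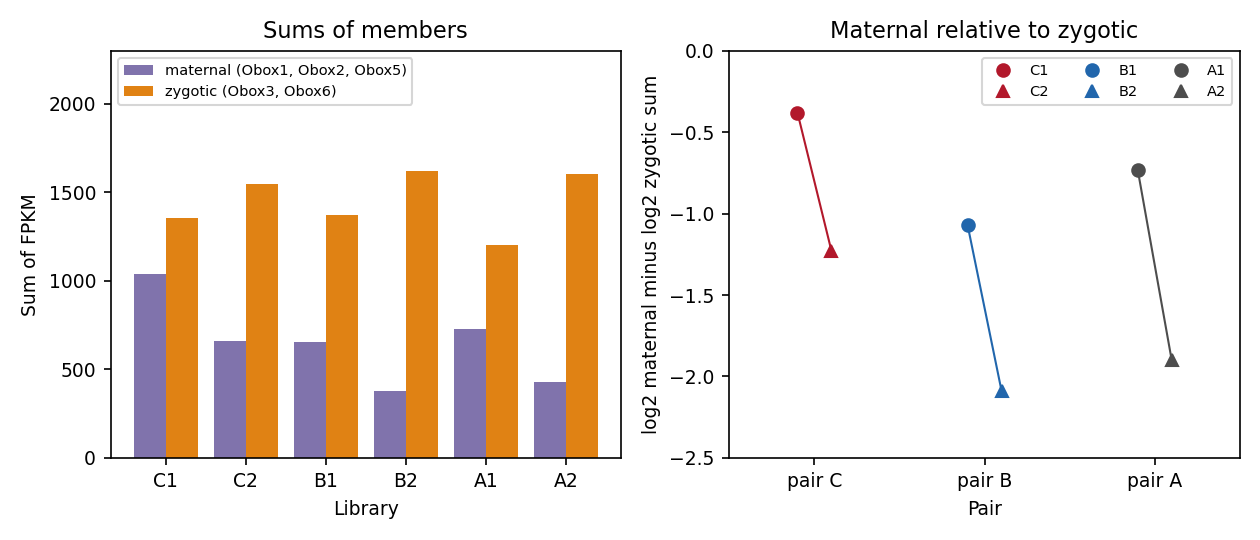
Left, summed FPKM of the maternal and zygotic members in each library; right, log2 maternal minus log2 zygotic sum, with a line joining the libraries of a pair. In each pair the library numbered 2 (triangle) has the lower maternal sum and the lower difference, between -1.23 and -2.09.

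Between the pairs no member passed the test, a limma fit of log2(FPKM + 1) over all 13443 genes that estimates a mean for each pair, with Benjamini-Hochberg adjustment over all genes (threshold 0.05). In each of the 3 comparisons 0 genes passed, 0% of those tested, and a second tool, limma-voom, run on reads, called 0 as well. Without adjustment, p lay below 0.05 for 220 genes (1.64%) with higher and 298 (2.22%) with lower values in C against B. The numbers were 225 (1.67%) and 180 (1.34%) in C against A, and 373 (2.77%) and 241 (1.79%) in B against A. Among the 5 members only Obox5 reached this, in C against B. With 2 pools a pair, a gene that misses the threshold is not shown to be alike between pairs.

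Obox5 had the largest coefficient of the members. Pair C averaged 622.5 ± 141 FPKM, pair B 321.4 ± 124 FPKM and pair A 396.9 ± 123 FPKM (SD, n = 2 each). The log2 fold change was 0.99 ± 0.38 for C against B (SE, limma, unadjusted p = 0.0349, adjusted p = 1), 0.66 ± 0.38 for C against A (adjusted p = 1) and -0.32 ± 0.38 for B against A (adjusted p = 0.991). Both C libraries lay above both B libraries, which held for 15.5% of all genes tested, and above both A libraries, which held for 16.5%. Without B2 the C against B value was 0.59, and without A2 the C against A value was 0.35; without B2 the B against A value was 0.08. The reverse, C wholly below A, held for 10.4% of genes, and for no member.

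For Obox3 pair C averaged 214.3 ± 12.2 FPKM, pair B 288 ± 21.2 FPKM and pair A 213.7 ± 22.2 FPKM (SD, n = 2 each). Its log2 fold change was -0.42 ± 0.26 for C against B, 0.01 ± 0.26 for C against A and 0.43 ± 0.26 for B against A (SE, limma, adjusted p = 1, 1 and 0.991). The C against A value was -0.05 after median scaling, so it has no settled sign. Both C libraries lay below both B libraries, as for 14.8% of genes, and both B libraries lay above both A libraries, as for 18.8%, while B lay wholly below A for 12.8% of genes and for no member. Obox5 and Obox3 thus had coefficients of opposite sign in C against B (0.99 and -0.42) and in B against A (-0.32 and 0.43), and these comparisons share pair B.

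Obox1, Obox2 and Obox6 overlapped between all pairs. The log2 fold changes of Obox1 were 0.19 ± 0.48 (C against B), 0.39 ± 0.48 (C against A) and 0.20 ± 0.48 (B against A), and those of Obox2 0.08 ± 0.57, 0.19 ± 0.57 and 0.12 ± 0.57 (SE, limma). Obox6 had coefficients of 0.04 ± 0.28, 0.07 ± 0.28 and 0.03 ± 0.28 in the same order. Each SE of these 3 genes exceeded its coefficient. Without C1 the C against B coefficients of Obox1 and Obox2 were -0.34 and -0.58, and without B2 they were -0.15 and -0.34. The B against A coefficient of Obox6 was -0.06 after median scaling.

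**Figure D4:**
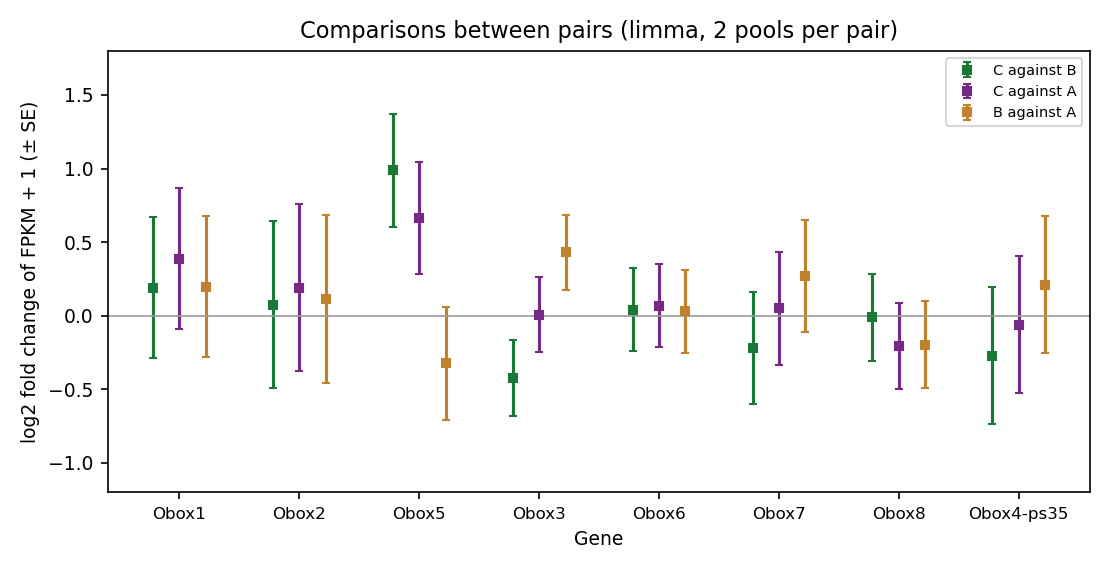
log2 fold change of FPKM + 1 (squares) with its SE (bars) for the 5 members, Obox7, Obox8 and Obox4-ps35 in C against B, C against A and B against A. Of these 8 genes Obox5 in C against B, at 0.99 ± 0.38, lies farthest from 0, and none passed the test over all genes.

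Obox1 and Obox2 differed more between the libraries numbered 2 and 1 of a pair than between pairs, a split noticed in these values and described without a test. The ratio of library 2 to library 1 was 0.48 in C, 0.62 in B and 0.53 in A for Obox1, and 0.40, 0.56 and 0.45 for Obox2. For Obox5 it was 0.72, 0.57 and 0.64. For Obox6 it was 1.19, 1.25 and 1.37, and for Obox3 0.92, 0.90 and 1.16. All 3 maternal members were lower in the library numbered 2 of every pair, as were 19.2% of the genes tested, and Obox6 was higher in each, as were 11.1%. Libraries numbered 2 lay wholly below those numbered 1 for Obox1 and Obox2, as for 10.1% of genes, and wholly above for Obox6, as for 4.78%. The median log2 difference of all genes tested, library 2 minus library 1, was -0.17 in C, 0.00 in B and -0.06 in A.

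Many other maternal transcripts were also lower in these libraries. Of 29 tested transcripts of maternal and oocyte genes, 18 were lower in the library numbered 2 of every pair, beside 19.2% of all genes. This list includes zona pellucida and subcortical maternal complex genes. The 1 gene higher in each was Zp3, of the zona pellucida, beside 11.1% of all genes. All 31 listed transcripts summed to 10780 and 10740 FPKM in pools C1 and C2, so the sum barely fell in pair C. They summed to 12220 and 8371 FPKM in pools B1 and B2, and 11390 and 10050 FPKM in pools A1 and A2. The median log2 difference between libraries 2 and 1, averaged over the pairs, was -0.66 for this list, -0.88 for the maternal Obox members and -0.07 for all genes tested. The list's median level, relative to the mean of the 6 libraries, was 0.46 and -0.39 (log2) in pools C1 and C2, 0.21 and -0.03 in pools B1 and B2, and 0.34 and -0.55 in pools A1 and A2. The mitochondrial share of reads was also higher in the libraries numbered 2, at 7.23% and 10.86% in pools C1 and C2, 8.24% and 10.22% in pools B1 and B2, and 10.55% and 13.13% in pools A1 and A2. The part of these differences in the Obox values was not tested. In pooled embryos, fewer cells with a transcript and less of it per cell cannot be told apart.

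The maternal members varied together across the 6 libraries, which share depth and composition effects, and Obox6 varied against them. Pearson's r of log2(FPKM + 1) was 0.979 between Obox1 and Obox2, which share reads, 0.711 between Obox1 and Obox5, and 0.629 between Obox2 and Obox5. Obox6 ran against Obox1 (r = -0.822), Obox2 (-0.900) and Obox5 (-0.504). Obox3 was near 0 with Obox1 (0.036), Obox2 (0.042) and Obox6 (0.027), and at -0.510 with Obox5.

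Other genes of the cluster were read beside the members. Obox7, a maternal family gene that shares 17.1% of its windows with Obox5, measured 81.37 and 47.98 FPKM in pools C1 and C2, 90.9 and 58.51 FPKM in pools B1 and B2, and 69.07 and 52.72 FPKM in pools A1 and A2, lower in the library numbered 2 of each pair. Obox4-ps35, annotated as a lincRNA with 0 shared windows, measured 206.1 and 123.2 FPKM in pools C1 and C2, 223.2 and 166.2 FPKM in pools B1 and B2, and 255.9 and 107.9 FPKM in pools A1 and A2, the same order within pairs. Of all genes tested, 19.2% had this order. Obox8, also with 0 shared windows, measured 582.3 and 720.7 FPKM in pools C1 and C2, 732.4 and 581.7 FPKM in pools B1 and B2, and 629.7 and 887.6 FPKM in pools A1 and A2. Its order within pairs was mixed, and it ranked 102. None of the 3 passed in any comparison (limma, adjusted p between 0.991 and 1).

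Several pseudogenes of Obox3 had higher FPKM than Obox3 itself. Obox3-ps5 and Obox3-ps6 averaged 905.3 and 890.3 FPKM over the 6 libraries, against 238.7 FPKM for Obox3, which has a gene model of 3191 bases. The models of these pseudogenes are shorter, at 1003 and 1005 bases, and FPKM divides by length. In reads summed over the libraries the gap was smaller, at 6471.8 and 6378.33 against 5416.14 for Obox3. The other Obox3 pseudogenes held fewer reads than Obox3, at most 3778.9 (Obox3-ps2). The other pseudogenes of Obox3 averaged 529.3 FPKM (Obox3-ps2), 352.4 (Obox3-ps3), 342.2 (Obox3-ps1), 292.6 (Obox3-ps4), 85.15 (Obox3-ps8, on chromosome 17) and 9.47 FPKM (Obox3-ps7). Obox3-ps7 was lower in the library numbered 2 of each pair, as were 19.2% of the genes tested. It held only 1.27, 2.58 and 1.17 reads in C2, B2 and A2, under the floor of 3 reads. Between Obox3-ps5 and Obox3-ps6, 79.8% of the windows of Obox3-ps5 were shared, and 29% of them occur in Obox3. Because most of these copies share sequence, Obox3 was also summed with its 8 pseudogenes, though Obox3-ps7 shares 0 windows. That sum was 3628.3 and 3136.9 FPKM in pools C1 and C2, 4146.7 and 4351.9 FPKM in pools B1 and B2, and 3067.1 and 3542.4 FPKM in pools A1 and A2. Both B libraries stood above the other 4, as for Obox3 alone, whose reads are part of this sum. The share of all genes with this order was not counted.

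The remaining rows were low. The 38 Obox4 pseudogene rows Obox4-ps1 to Obox4-ps34 and Obox4-ps36 to Obox4-ps39 together held 12.9 to 59.7 reads in a library, and between 9 and 26 of them were at 0. Obox6-ps1, on chromosome 17, averaged 6.62 FPKM. All 55 rows with an Obox name together took 0.74% to 0.875% of the assigned reads.

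Of 30 homeobox genes of the oocyte and early embryo, 13 were tested and 0 passed in any comparison (limma). In C against B 11 of the 13 had coefficients below 0, with a median of -0.35 beside 0 for all genes tested. Hesx1, a homeobox repressor, measured 25.24 and 30.03 FPKM in pools C1 and C2, and 65.88 and 43.6 FPKM in pools B1 and B2, a log2 fold change of -0.94 ± 0.34 (SE, limma, adjusted p = 1). Duxbl2, of the double homeobox class, had -0.37 ± 0.35 and Nobox, an oocyte homeobox factor, -0.86 ± 0.57 (SE). In C against A 4 of the 13 coefficients lay above 0, with a median of -0.03 beside 0.07 for all genes. In B against A 12 lay above 0, with a median of 0.33 beside 0.07. Of all genes tested, 49.9% lay above 0 in C against B, 56.5% in C against A and 55.1% in B against A.

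The 33 factors of genome activation were all tested and 0 passed in any comparison (limma). Their medians were -0.19 in C against B, 0.12 in C against A and 0.12 in B against A. For all genes tested the medians were 0, 0.07 and 0.07. Zfp352 had a log2 fold change of -0.93 ± 0.30 in C against B and 1.12 ± 0.30 in B against A, and Zscan4d -0.88 ± 0.37 and 1.16 ± 0.37 (SE, limma, adjusted p of 0.894 or above). Zscan4f, in C against A, had 1.30 ± 0.72 (SE, adjusted p = 1). Both B libraries were above both A libraries for Zfp352, Zscan4d and Obox3, as for 18.8% of all genes tested. Zfp352 and Zscan4d were picked for the lowest unadjusted p of the list (limma), and the other factors were not counted. C against B and B against A share pair B. Lower values in the library numbered 2 of every pair were found for 0 of the 33 factors, and higher ones for 3. Of all genes tested, 19.2% were lower and 11.1% were higher in this way.

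All 22 markers of the 2-cell stage were tested and 0 passed (limma). In C against B 21 of them had coefficients below 0, with a median of -0.56, and in B against A 21 lay above 0, with a median of 0.79. In C against A 16 lay above 0, with a median of 0.16. Of all genes tested, 49.9% lay above 0 in C against B, 56.5% in C against A and 55.1% in B against A. Their medians were 0, 0.07 and 0.07. Zfp352 and Zscan4d stand in both this list and that of genome activation, as do other Zscan4 genes. Tdpoz2, a 2-cell gene with a BTB domain, had -0.79 ± 0.33 in C against B and 1.32 ± 0.33 in B against A (SE, limma, adjusted p = 1 and 0.887). The high level of B2 enters both of these comparisons. Of the markers 0 were lower and 2 were higher in the library numbered 2 of every pair, beside 19.2% and 11.1% of all genes tested.

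Of the 31 maternal and oocyte transcripts 29 were tested and 0 passed (limma). Their medians were 0.02 in C against B, 0.14 in C against A and 0.21 in B against A. For all genes tested the medians were 0, 0.07 and 0.07. Nobox stands in both this list and that of homeobox genes. Padi6, of the subcortical maternal complex, had 0.98 ± 0.51 in C against A, and Zp3, a zona pellucida protein, had -0.61 ± 0.34 (SE, limma, adjusted p = 1). Oosp3 had -0.64 ± 0.38 in C against B and 1.00 ± 0.38 in B against A (SE, limma, adjusted p = 1 and 0.991). The 3 tested cumulus markers had medians of -0.30, 0.41 and 0.40 in the order C against B, C against A and B against A, and 0 passed (limma).

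The genes most like each class were taken as the 5 with the highest Pearson r of log2(FPKM + 1) over the 6 libraries, among 7067 genes averaging 5 FPKM or more that have no Obox name. For the maternal sum these were Chmp5 (r = 0.994), Wdr47 (0.987), Itgb1bp1 (0.984), Abi1 (0.980) and Prdx3 (0.976). Chmp5, which encodes an ESCRT-III protein and has the highest r of these, measured 111.74 and 92.16 FPKM in pools C1 and C2, 87.96 and 70.54 FPKM in pools B1 and B2, and 91.5 and 73.61 FPKM in pools A1 and A2. For the zygotic sum they included Gm20458 (r = 0.989), Caprin1 (0.987), Dbndd2 (0.984) and BC003965 (0.981). These are the extremes of 7067 values over 6 libraries that share depth and composition, and are given as a description.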

How the data were processed

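Per the submitters' processing notes, reads were handled with Trimmomatic, Trim Galore, cutadapt, STAR and featureCounts against mm10; for versions, annotation and strand handling, the sources used here give nothing. cDNA was amplified with 13 PCR cycles and read in pairs of 50 and 25 bases, per the labels' protocols. The deposited table holds FPKM values made by the authors, with a gene length in bases. Reads were recovered as FPKM times length times a depth set for each library; 100% of recovered values were multiples of 0.01 read (tolerance 0.0002), and 55.58% to 57.88% were whole (tolerance 0.001). PCR copies were not separable, so floors (3 reads) cover counting error only. A count test was not used for the main result, since reads are fractional.

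Genes averaging 1 FPKM or more were tested with limma 3.58.1 in R 4.3.3 on log2(FPKM + 1), with a variance trend and all 3 pairs in 1 fit; fold changes on this scale understate those of low genes. In simulated counts with spread between replicates, the fit missed changed genes even at a large fold, so the lack of a call does not show that a gene was alike between pairs. Sums over members have no test. Transcript windows came from GENCODE M21 (all 55 identifiers matched) and promoters from RefSeq (GRCm38.p6), aligned with Biopython 1.88. All members and Obox rows, at most 4 genes per list and comparison (lowest unadjusted p) and the 5 genes most like each class were eligible for naming; 1 of them is not reported here. Members and lists were chosen with earlier results of these data known. Alternatives were another pseudocount (0.1), median scaling or quantile normalization, no filter or one at 5 FPKM, no trend, a fit of only the pairs compared, a block for the replicate number, limma-voom on reads, sums of reads or of all Obox rows, and each library left out. The other 9 libraries of the series were not analysed here.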

Additional observations from a re-analysis of the deposited data

How the results depend on the processing

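Under each alternative run on them, the maternal sum, the zygotic sum and their difference moved by less than the within-pair SD, but that SD is as large as most of these differences. With a library left out, the maternal sum ran from 0.337 to 1.123 (C against B), 0.191 to 0.947 (C against A) and -0.553 to 0.232 (B against A), and its difference from the zygotic sum from 0.26 to 1.28, -0.077 to 1.095 and -0.847 to 0.324. The family sum ran from 0.134 to 0.25, 0.158 to 0.273 and -0.015 to 0.062. Summed over all rows named Obox, the values were -0.124 (C against B, where the members had 0.192), 0.061 (C against A, members 0.216) and 0.185 (B against A, members 0.023), and median scaling gave -0.068 for the members in B against A. Across the alternatives 0 genes passed in each comparison, except for 1 gene in C against B with a pseudocount of 0.1. The smallest adjusted p of any member was 0.880. Of 135 member coefficients under settings other than leaving out a library, 3 changed sign: Obox3 in C against A (-0.045 after median scaling and -0.035 after quantile normalization) and Obox6 in B against A (-0.063 after median scaling). Of 90 with a library left out, 21 changed sign. The ranges in C against B, C against A and B against A were -0.341 to 0.722, -0.144 to 0.92 and -0.251 to 0.646 for Obox1, -0.583 to 0.734, -0.468 to 0.85 and -0.455 to 0.686 for Obox2, and -0.124 to 0.204, -0.157 to 0.295 and -0.197 to 0.255 for Obox6. They were -0.099 to 0.112 for Obox3 in C against A and -0.727 to 0.079 for Obox5 in B against A, while Obox5 in C against B ran from 0.585 to 1.391. With the replicate number as a block, 0 genes passed and Obox5 in C against B had 0.988 ± 0.252 (SE, limma, adjusted p = 0.951). Between libraries of the same number, deviations from the pair means correlated at 0.005 (C and B), 0.203 (C and A) and 0.098 (B and A). The numbers were therefore not taken to pair the libraries, but this check covers all genes tested and cannot settle it for single ones. In C against B the block changed the SE (limma) from 0.481 to 0.272 for Obox1 and from 0.57 to 0.282 for Obox2. For Obox5 it went from 0.382 to 0.252, for Obox6 from 0.283 to 0.239 and for Obox3 from 0.257 to 0.261.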
